A study of Homo sapiens with 12 samples.

Results

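The nuclear genes for subunits of the mitochondrial respiratory chain were followed in human embryonic stem cells, pluripotent cells grown from early embryos. Members were defined by gene symbol, with earlier results of these data known, and kept if detected on at least 2 arrays. They carry the prefixes NDUFA, NDUFB, NDUFC, NDUFS or NDUFV (complex I), UQCR (complex III), COX4 to COX8 (complex IV) or ATP5 (complex V), or are an SDH gene of complex II. Pseudogenes, an antisense gene and the NDUFAF assembly factors were left out, as was COXFA4, once named NDUFA4. The array held 110 such probes for 82 genes, and 103 probes for 76 genes were detected on at least 2 arrays. These 76 genes are among 13951 genes tested. They make up 34 genes of complex I, 3 of complex II, 8 of complex III, 13 of complex IV and 18 of complex V. Subunits encoded by mitochondrial DNA were not analysed here.

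The respiratory chain passes electrons from NADH and succinate to oxygen while complexes I, III and IV pump protons across the inner mitochondrial membrane. ATP synthase, complex V, lets the protons flow back and makes ATP. Pluripotent stem cells are known for making much of their ATP by glycolysis, and their respiratory chain genes are nonetheless expressed. Many nuclear subunit genes are known targets of the transcription factors NRF1, GABPA (an ETS factor) and YY1.

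The lines H9 and CT2 were each studied with an shRNA against JMJD1C (knockdown), with a mismatch shRNA that serves as the control hairpin (mismatch), or without treatment. JMJD1C belongs to the JmjC family of histone demethylases, in the group tied to lysine 9 of histone H3. Each of the 6 groups had 2 Illumina bead arrays of total RNA, and no label says whether the 2 came from separate cultures, so p-values measure only the spread between arrays. In bulk RNA a change in the share of a cell type and a change in RNA per cell cannot be told apart.

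Median intensity per array was 150.2 to 196.8 before normalization, and 44.7% to 47.31% of probes were detected. JMJD1C itself fell by 1.28 ± 0.19 on the log2 scale with the knockdown, against the mismatch shRNA (SE, limma, adjusted p = 0.00072). Its normalized log2 intensity was 10.60 and 10.71 in H9 knockdown, 11.95 and 11.51 in H9 mismatch, 10.77 and 10.71 in CT2 knockdown and 12.06 and 12.38 in CT2 mismatch. Of 11 listed pluripotency markers, 10 were on the array, and those 10 were detected on all 12 arrays. Of 8 listed neuron markers 5 to 7 were detected per array. Between 3 and 5 of 7 fibroblast markers and 1 to 3 of 6 endoderm markers were detected, as were 1 to 3 of 7 trophoblast markers and 2 to 4 of the 7 muscle markers on the array. Replicates differed most in CT2 mismatch and untreated H9. Over the 76 subunits, replicates differed with an SD on the log2 scale of 0.409 in CT2 mismatch and 0.402 in untreated H9, and between 0.213 and 0.307 in the other groups. The spread of a pair cannot tell which of its arrays is off. CT2 mismatch replicate 2 and H9 untreated replicate 1, with the lowest median intensities, are called the arrays that stood apart. Subunit medians, each gene set against its own mean, were 0.14 and -0.02 on CT2 mismatch replicates 1 and 2. In untreated H9 they were -0.12 and 0.03. Some results that rest on the 2 arrays that stood apart are given with and without them, and others with all arrays only.

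Promoter sequence is shown for 3 members on which the results turn. NDUFA8 was the subunit called with the knockdown, ATP5MK differed most between the lines, and COX4I1 varied least over the arrays. Each window runs from 250 bases before to 50 bases after the start of the gene in RefSeq's GRCh38.p14, 5′ to 3′ on the gene's strand. The positions are chr9:122159730-122160029 (minus strand) for NDUFA8, chr10:103396426-103396725 (minus strand) for ATP5MK and chr16:85799445-85799744 (plus strand) for COX4I1. Capitals mark matches to the NRF1 motif, 10 letters of which 1 may be any base, in NDUFA8 and to the ETS motif CCGGAAG in the other genes, on either strand.
NDUFA8: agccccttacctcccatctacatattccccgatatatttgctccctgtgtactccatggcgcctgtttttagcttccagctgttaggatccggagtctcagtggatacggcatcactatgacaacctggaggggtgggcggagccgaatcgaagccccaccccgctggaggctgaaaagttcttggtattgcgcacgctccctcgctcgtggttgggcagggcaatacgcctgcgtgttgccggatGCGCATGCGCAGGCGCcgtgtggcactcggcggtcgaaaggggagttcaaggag
ATP5MK: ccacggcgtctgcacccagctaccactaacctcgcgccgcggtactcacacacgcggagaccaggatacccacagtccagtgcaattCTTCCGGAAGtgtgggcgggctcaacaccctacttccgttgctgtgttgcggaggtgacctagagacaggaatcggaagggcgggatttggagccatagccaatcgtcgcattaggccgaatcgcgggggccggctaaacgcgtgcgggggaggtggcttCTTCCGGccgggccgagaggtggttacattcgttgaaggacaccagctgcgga
COX4I1: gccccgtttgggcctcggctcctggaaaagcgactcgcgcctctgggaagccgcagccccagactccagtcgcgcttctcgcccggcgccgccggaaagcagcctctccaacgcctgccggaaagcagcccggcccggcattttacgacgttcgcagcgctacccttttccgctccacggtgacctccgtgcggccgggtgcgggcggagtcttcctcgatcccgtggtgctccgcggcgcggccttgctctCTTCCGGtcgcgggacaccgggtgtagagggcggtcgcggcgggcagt
In NDUFA8 the palindrome GCGCATGCGC began 4 bases before the start, and a second match on the minus strand, GCGCAGGCGC, overlapped its end. ATP5MK had a match on both strands about 160 bases upstream of the start and another at 3 bases upstream. COX4I1 had its match 3 bases from the start. RefSeq promoters were found for 63 of the 76 members. The NRF1 motif was in 15 of these windows (23.8%), against 12.3% of the 11017 tested genes with a window and 6.98% of all 27305 windows. The ETS motif was in 20 (31.7%), against 20.3% and 12.2%. The YY1 motif AAGATGGC was in 11 (17.5%), against 5.93% and 3.52%. At least one of the 3 motifs, searched on both strands, was in 38 members (60.3%), against 33.3% of tested genes and 20% of all windows. These are letter matches and not binding data.

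The first question was whether knockdown of JMJD1C changed the respiratory chain genes. Of the 76 subunits, 1 rose with the knockdown relative to the mismatch shRNA and 0 fell, as the mean of both lines, at an adjusted p under 0.05 (limma, Benjamini-Hochberg over all genes). Over all genes tested 6.56% were called in either direction, 3.18% higher and 3.38% lower. At an unadjusted p under 0.05 there were 4 subunits, or 5.26%, against 21.5% of all genes. Differences ran from -0.47 to 0.46 on the log2 scale with a median of 0.00, against 0.01 over all genes. Of the subunits 39 had a positive and 37 a negative estimate. The median size of the difference, without its sign, was 0.12 for subunits and 0.21 for all genes.

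The intervals of these differences were narrow. The 95% confidence interval lay within a 2-fold change in both directions for 75 of 76 subunits, or 98.7%, and for 85.9% of all genes. It lay within a 1.5-fold change for 64 subunits, or 84.2%, and for 38.7% of all genes. The median standard error was 0.13 for subunits and 0.20 for all genes, so the subunits were also the more precisely measured. Their probes were brighter than most on the array, and the part of brightness in these shares was not tested. These counts include COX7A1, below detection in both groups, and COX6B2, below detection with the knockdown, whose intervals do not measure a change. The subunit whose interval reached past 2-fold was NDUFC2, a small accessory subunit of complex I that was dim (log2 difference 0.46, interval -0.12 to 1.03).

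**Figure D1:**
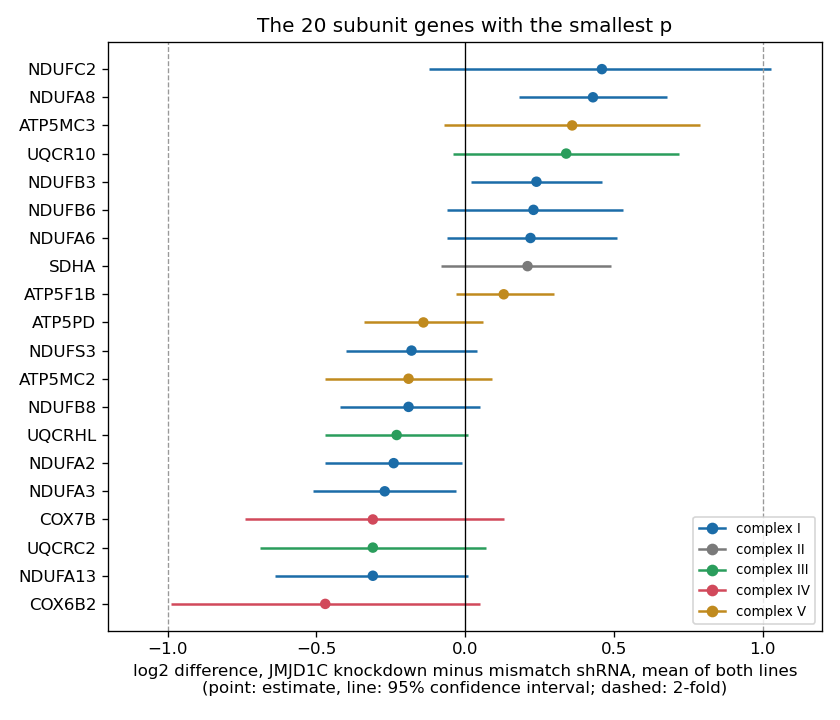
Log2 difference between JMJD1C knockdown and mismatch shRNA (x axis, mean of both lines) for the 20 subunits with the smallest p, with 95% confidence intervals as lines, coloured by complex. NDUFA8 at 0.43 is the point that passed the adjusted threshold, and NDUFC2 is the one whose interval crosses the dashed 2-fold line.

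NDUFA8 is an accessory subunit of complex I that lies on the side of the intermembrane space. Its normalized log2 intensity was 13.54 and 13.30 in H9 knockdown, against 12.90 and 13.04 in H9 mismatch. It was 13.09 and 13.04 in CT2 knockdown, against 12.80 and 12.49 in CT2 mismatch. In both lines each knockdown array lay above each mismatch array, 4 of 4 arrays. The log2 difference was 0.43 ± 0.12 (SE, limma), a 1.35-fold change, with an interval of 0.18 to 0.68 and an adjusted p of 0.0366. By line it was 0.45 ± 0.17 in H9 (adjusted p = 0.236) and 0.42 ± 0.17 in CT2 (adjusted p = 0.164), both short of the threshold. Untreated arrays stood at 12.88 and 13.01 in H9 and at 13.11 and 13.16 in CT2, so the CT2 knockdown arrays lay just below the untreated ones. Relative to untreated cells the difference was 0.20 ± 0.12 with the knockdown (adjusted p = 0.437) and -0.23 ± 0.12 with the mismatch shRNA (adjusted p = 0.346). The call is near its limit. The difference was 0.36 without the 2 arrays that stood apart (adjusted p = 0.0491), and over 22 alternatives the adjusted p ran from 0.0118 to 0.165. Leaving out 1 array ended the call for 9 of the 12 arrays, with the highest value, 0.165, without H9 knockdown replicate 1. NDUFA8 has 1 probe on the array. Among markers of other cell types, the endoderm and neuron means were higher on every knockdown array than on every mismatch array. Those of the fibroblast, trophoblast and muscle markers overlapped. The mean log2 intensity of the 3 measured endoderm markers was 7.18 to 7.83 per knockdown array, against 6.53 to 6.97 per mismatch array, and 6.75 to 7.47 per untreated array. That of the 7 measured neuron markers was 8.46 to 8.57 per knockdown array, against 7.78 to 8.44 per mismatch array, and 7.74 to 8.60 per untreated array. Fibroblast markers were at 8.97 to 9.24 per knockdown array and 8.88 to 9.27 per mismatch array. Trophoblast markers were at 5.84 to 6.22 and 5.85 to 6.38, and muscle markers at 8.35 to 8.65 and 7.86 to 8.57. The part of other cell types in the NDUFA8 difference and the other knockdown differences was not tested.

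Other complex I subunits gave values short of the threshold. NDUFB3, an accessory subunit, had 13.56 and 13.60 in H9 knockdown, against 13.25 and 13.19 in H9 mismatch, and 13.37 and 13.37 in CT2 knockdown, against 13.31 and 13.18 in CT2 mismatch. All 4 knockdown arrays exceeded the mismatch arrays of their line, by 0.24 ± 0.10 (adjusted p = 0.185), and a second NDUFB3 probe gave 0.21. NDUFA3 and NDUFA2, also accessory subunits, had estimates of -0.27 ± 0.11 (adjusted p = 0.182) and -0.24 ± 0.11 (adjusted p = 0.202). NDUFA13, known also as GRIM-19, stood at -0.31 ± 0.15 (adjusted p = 0.254). Among the core subunits, which form the electron path to ubiquinone, NDUFV1 stood at 0.01, NDUFS1 at 0.00, NDUFS7 at -0.02, NDUFV2 at -0.12, NDUFS8 at 0.17 and NDUFS3 at -0.18. The accessory subunits NDUFB8, NDUFB6 and NDUFA6 were at -0.19, 0.23 and 0.22. Complex I as a whole had 20 positive and 14 negative estimates and a median of 0.01.

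Complex II, the succinate dehydrogenase, was measured through 3 of its genes. The flavoprotein subunit SDHA stood at 0.21 ± 0.13 (adjusted p = 0.411), and the membrane anchors SDHC and SDHD at -0.13 ± 0.16 and -0.01 ± 0.22.

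Complex III, which takes electrons from ubiquinol, had 2 positive and 6 negative estimates with a median of -0.17, and 0 of its 8 genes passed the threshold. Its core protein UQCRC2 stood at -0.31 ± 0.18 (adjusted p = 0.341), and the small subunit UQCR10 at 0.34 ± 0.18 (adjusted p = 0.290). The hinge protein gene UQCRH was at -0.02, and UQCRHL, a near copy of it, at -0.23 ± 0.11 (adjusted p = 0.263). A second UQCRH probe gave -0.27, and the array may not tell the 2 genes apart.

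Complex IV, cytochrome c oxidase, is known for tissue-specific isoforms of its small subunits. COX4I1, the general isoform of subunit 4, ran from 14.68 to 14.87 over the 12 arrays, a range of 0.19, and its knockdown difference was 0.02 ± 0.09 with an interval of -0.16 to 0.20. COX5A stood at 0.01, COX5B at 0.15, COX6A1 at -0.13, COX6B1 at -0.07, COX7A2 at -0.09, COX7A2L at -0.15 and COX8A at -0.01. COXFA4, now counted with complex IV, stood at -0.02. The isoform genes COX4I2 (lung), COX6A2 (muscle), COX7B2 and COX8C (testis) were detected on 0 arrays, with intensities of at most 175.9 before normalization. COX7A1, the heart and muscle isoform, was below detection on every knockdown and mismatch array. COXFA4L2, an isoform that is known to respond to hypoxia, was dim (-0.06 ± 0.27).

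COX6B2, the testis isoform of subunit 6b, had the lowest estimate among the members, -0.47 ± 0.24 (limma, adjusted p = 0.280). It was 5.77 and 5.76 in H9 knockdown, against 6.67 and 5.79 in H9 mismatch, and 5.80 and 5.89 in CT2 knockdown, against 6.33 and 6.33 in CT2 mismatch. It was detected on 3 arrays, all of them mismatch arrays. COX6B2 thus passed the detection filter only through the groups where it was high, so its differences are not independent of that filter. In CT2, where both mismatch arrays detected it, the group means put the knockdown at least 1.25-fold lower, short of the threshold (limma, adjusted p = 0.467). Such a bound sets the lowest signal of a detected probe in place of the unmeasured level. A second COX6B2 probe, also detected on 3 arrays, gave -1.02 as the mean of both lines, -0.45 in H9 and -1.60 in CT2. With all probes tested in limma, its adjusted p = 0.0761 for the mean and adjusted p = 0.0650 in CT2.

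Complex V, ATP synthase, had 12 positive and 6 negative estimates and a median of 0.04. Its catalytic subunit gene ATP5F1B ran from 15.64 to 15.90 over the arrays, with a knockdown difference of 0.13 ± 0.08 (adjusted p = 0.356). ATP5MC1, ATP5MC2 and ATP5MC3 encode the same mature subunit c of the rotor ring. Their estimates were 0.14 ± 0.18, -0.19 ± 0.13 and 0.36 ± 0.20, and 0 of the 3 passed. ATP5PD, a stalk subunit, stood at -0.14 ± 0.09, and ATP5IF1, the inhibitor that blocks the reverse reaction, at -0.19 ± 0.15.

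The remaining question was whether the 2 lines responded alike. In H9, 0 subunits rose and 0 fell at an adjusted p under 0.05 in limma, against 2.55% of all genes called (0.989% higher and 1.56% lower). At an unadjusted p under 0.05 there were 2 subunits in H9, or 2.63%, against 11.9% of all genes. In CT2, 0 rose and 0 fell, against 4.56% of all genes called (2.75% higher and 1.81% lower). At an unadjusted p under 0.05 there were 10 in CT2, or 13.2%, against 20.4% of all genes. The interval lay within 2-fold for 71 subunits in H9 (93.4%) and for 69 in CT2 (90.8%), against 66.6% and 58.3% of all genes. For the difference of the 2 responses limma called 0 higher and 0 lower, against 0.416% of all genes (0.122% higher and 0.294% lower), and 4 subunits had an unadjusted p under 0.05, or 5.26%, against 11% of all genes. The median response was 0.05 in H9 and -0.08 in CT2, against 0.01 and 0.03 over all genes. The median difference of responses was 0.16, with 53 of 76 positive, against -0.03 with 6575 of 13951 positive over all genes. Without CT2 mismatch replicate 1 the CT2 median was 0.01 and the median difference 0.07, and without H9 knockdown replicate 1 the median difference was 0.09. Across the 76 subunits the response in H9 and that in CT2 had a Pearson r of 0.09 and the same sign in 36 (47.4%). Across all genes r was 0.31, and 58.9% had the same sign. Genes are not independent replicates, and all points come from arrays normalized together.

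**Figure D2:**
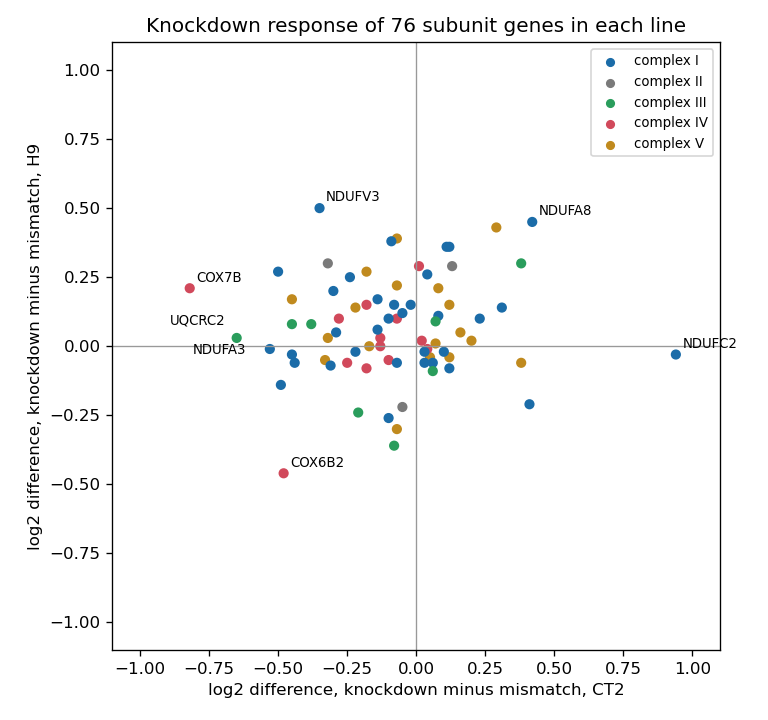
Log2 difference between knockdown and mismatch in CT2 (x axis) and in H9 (y axis) for each of the 76 subunits, coloured by complex. NDUFA8 lies at 0.42 in CT2 and 0.45 in H9, while COX7B lies at -0.82 in CT2 and 0.21 in H9 and NDUFC2 at 0.94 in CT2 and -0.03 in H9.

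COX7B, a small subunit of complex IV, gave the largest estimate of a difference between the responses, 1.02 ± 0.41 (adjusted p = 0.373). It was 12.67 and 12.60 in H9 knockdown, against 12.58 and 12.27 in H9 mismatch. It was 12.33 and 12.40 in CT2 knockdown, against 12.84 and 13.53 in CT2 mismatch. The CT2 difference of -0.82 ± 0.29 (adjusted p = 0.121) turns on mismatch replicate 2, one of the arrays that stood apart. Without mismatch replicate 1 it was -1.16 (adjusted p = 0.0188), and without mismatch replicate 2 it was -0.47 (adjusted p = 0.451). With either untreated H9 array left out of the shared estimate of spread, COX7B also passed (adjusted p = 0.0310 without replicate 1 and 0.0301 without replicate 2). Leaving out CT2 mismatch replicate 1 raised the number of subunits called lower in CT2 to 6, and leaving out replicate 2 left it at 0. Over all genes 631 were called lower and 1199 higher without replicate 1, against 252 and 384 with all arrays.

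Several other subunits had small unadjusted p-values in CT2. NDUFA3 was 13.60 and 13.33 in CT2 knockdown, against 13.90 and 14.09 in CT2 mismatch, a difference of -0.53 ± 0.16 (adjusted p = 0.0727). NDUFA2 gave -0.45 ± 0.15 (adjusted p = 0.100) and UQCRC2 -0.65 ± 0.25 (adjusted p = 0.153). UQCRC2 was 11.08 on both CT2 knockdown arrays, against 11.38 and 12.09 in CT2 mismatch. Its estimate thus leans on mismatch replicate 2, one of the arrays that stood apart. NDUFC2 was 6.00 and 7.19 in CT2 knockdown, and below detection at 5.88 and 5.42 in CT2 mismatch (limma, adjusted p = 0.173). By the group means it was at least 1.5-fold higher with the knockdown. That bound rests on knockdown replicate 2, since replicate 1 did not exceed the level of 6.01 set for the mismatch group. In H9 the smallest p-values after NDUFA8 belonged to NDUFB3 at 0.36 ± 0.15 (adjusted p = 0.291) and to ATP5MJ, a small subunit of ATP synthase, at 0.39 (adjusted p = 0.457). NDUFV3, an accessory subunit of the NADH-binding module, was 9.06 and 8.70 in H9 knockdown, against 8.34 and 8.43 in H9 mismatch, and 7.55 and 7.72 in CT2 knockdown, against 8.02 and 7.95 in CT2 mismatch. The difference of responses was 0.85 ± 0.38 (adjusted p = 0.423). A second, dimmer NDUFV3 probe, detected on 6 arrays, gave 0.67 in H9 and 0.60 in CT2, so the probes disagree on the sign in CT2.

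Both shRNA groups were also set against untreated cells. These comparisons share the untreated arrays, so their values stand side by side only. With the knockdown 0 subunits rose and 1 fell in limma, against 3.43% of all genes called (1.56% higher and 1.86% lower), and 8 had an unadjusted p under 0.05, or 10.5%, against 16.5% of all genes. With the mismatch shRNA 0 rose and 0 fell in limma, against 1.19% of all genes (0.573% higher and 0.616% lower). At an unadjusted p under 0.05 there were 12, or 15.8%, against 16.1% of all genes. The medians were 0.06 and 0.07, against 0.03 and 0.01 over all genes, and with median scaling they were -0.05 and -0.08, against 0.009 and -0.076. In the mismatch comparison 11 of the 13 complex IV genes had positive estimates, with a median of 0.17, and 6 of the 13 had an unadjusted p under 0.05. Over all genes 7249 of 13951 estimates were positive. By complex, 4 of 34 genes of complex I, 0 of 3 of complex II, 0 of 8 of complex III and 2 of 18 of complex V had such a p. The 6 of complex IV were COX7A1, COX6B2, COX7A2L (0.35), COX6B1 and COX6C (both 0.26) and COX8A (0.25). COX7A1, with a negative estimate, was below detection on every mismatch array. COX6B2, with a positive one, was below detection on every untreated array, so no size is given for these genes. Each had passed the detection filter only through the group where it was high. Other small p-values there belonged to ATP5PD at 0.28 ± 0.09 (adjusted p = 0.151) and ATP5MC2 at 0.35 ± 0.13 (adjusted p = 0.201). The ATP5MC2 estimate was 0.47 without CT2 mismatch replicate 2, one of the arrays that stood apart.

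COX7A1 was the subunit called lower with the knockdown. Its log2 intensity was 5.06 and 5.54 in CT2 knockdown, 5.02 and 5.51 in CT2 mismatch, and 7.34 and 6.70 in untreated CT2. In H9 it was 5.28 and 5.11 in knockdown, 5.14 and 5.26 in mismatch, and 5.35 and 5.22 in untreated cells. The 2 untreated CT2 arrays were the ones on which it was detected, and they lay above the other 10. COX7A1 thus passed the detection filter only through the group where it was high, so its calls are not independent of that filter. Fitted as the mean of both lines, the difference from untreated cells had an adjusted p of 0.0415 with the knockdown and 0.0622 with the mismatch shRNA (limma). Since H9 was below detection in all 3 groups, no fold is given for that mean, and the detected signal behind it is that of untreated CT2. The knockdown call was lost in 12 of 21 alternatives, and its adjusted p ran from 0.0194 to 0.202. The mismatch comparison passed without CT2 mismatch replicate 2 (adjusted p = 0.0265). The mean log2 intensity of the 4 measured muscle markers was 8.35 to 8.65 per knockdown array, 7.86 to 8.57 per mismatch array and 8.12 to 8.43 per untreated array. Whether other cells contribute to the COX7A1 signal was not tested.

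**Figure D3:**
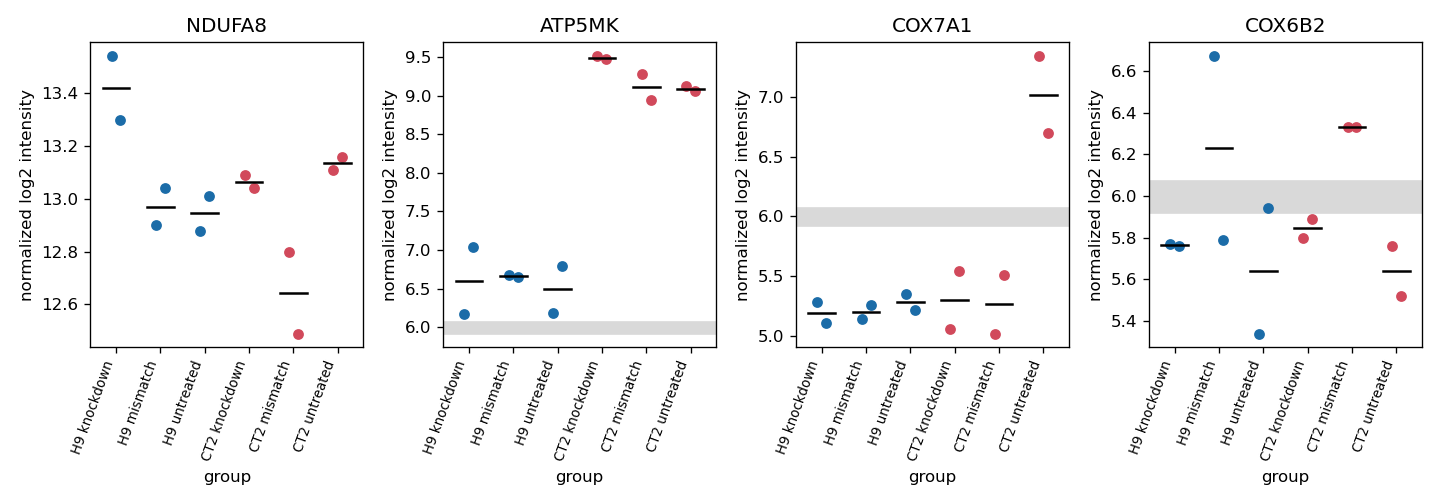
Normalized log2 intensity (y axis, each panel with its own range) of NDUFA8, ATP5MK, COX7A1 and COX6B2 on each array, by group, with a bar at the mean of 2 arrays; the grey band spans the lowest detected signal of the 12 arrays and lies below the range shown for NDUFA8. COX7A1 is above the band on the 2 untreated CT2 arrays at 7.34 and 6.70, and ATP5MK is at 6.17 to 7.04 in H9 and 8.94 to 9.51 in CT2.

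The largest differences lay between the lines. In untreated cells 3 subunits were higher and 4 were lower in H9 than in CT2 at an adjusted p under 0.05 in limma, against 5.99% of all genes higher and 8.76% lower. Over all genes 14.7% were called in either direction, so the 7 of 76 subunits are no larger a share than the background. COX7A1, among the 4 lower, had passed the detection filter only through untreated CT2. The median was 0.02, and the median size without its sign was 0.21 for subunits and 0.37 for all genes.

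ATP5MK, also known as DAPIT, is a small subunit in the membrane part of ATP synthase. In H9 its log2 intensity was 6.17 and 7.04 in knockdown, 6.68 and 6.65 in mismatch, and 6.19 and 6.80 in untreated cells. In CT2 it was 9.51 and 9.47 in knockdown, 9.28 and 8.94 in mismatch, and 9.12 and 9.06 in untreated cells. All 6 H9 arrays lay below all 6 CT2 arrays, and it was detected on all 12. The H9 values were near the lowest detected signal, which was 5.92 to 6.07 per array. In untreated cells the difference was -2.60 ± 0.32 (limma, adjusted p = 0.000111), 0.165 of the CT2 level. Its size varied with the processing: the difference was -1.54 without background correction and -1.51 in the authors' value table. It passed in all 22 alternatives, with values from -2.90 to -1.51. With the knockdown ATP5MK did not pass in either line (-0.06 ± 0.32 in H9 and 0.38 ± 0.32 in CT2). ATP5MK has 1 probe, and a difference in sequence under the probe was not tested.

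COX7A1 was at least 2.1-fold lower in untreated H9 than in untreated CT2 (limma, adjusted p = 0.00325), a call lost without CT2 untreated replicate 1 (adjusted p = 0.0682). NDUFV2, a core subunit of the NADH-binding module of complex I, was 14.09 and 13.93 in untreated H9, against 13.19 and 13.37 in untreated CT2. It was higher by 0.73 ± 0.16 (limma, adjusted p = 0.00822), and by 0.65 without H9 untreated replicate 1 (adjusted p = 0.0611) or 0.64 without CT2 untreated replicate 1 (adjusted p = 0.110). ATP5F1D, the delta subunit of ATP synthase, was 13.44 and 13.87 in untreated H9, against 12.99 and 12.91 in untreated CT2. It was higher by 0.71 ± 0.19 (limma, adjusted p = 0.0199), while a second probe for it gave 0.12. The ATP5F1D call was lost without H9 untreated replicate 2 (0.49, adjusted p = 0.135), CT2 untreated replicate 1 (adjusted p = 0.110) or CT2 untreated replicate 2 (adjusted p = 0.126).

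NDUFS7, the core subunit next to the quinone site of complex I, was 11.24 and 11.66 in untreated H9, against 12.29 and 12.14 in untreated CT2. The difference was -0.77 ± 0.23 (limma, adjusted p = 0.0359), and it was -0.56 without H9 untreated replicate 1 (adjusted p = 0.232). ATP5ME, a membrane subunit of ATP synthase, was 0.52 ± 0.16 higher in H9 (limma, adjusted p = 0.0410), and its other probes gave 0.17 and -0.04. NDUFB5, an accessory subunit of complex I, stood at -0.57 ± 0.18 (limma, adjusted p = 0.0454). The NDUFS7, ATP5ME and NDUFB5 calls were lost in 11, 13 and 17 of 22 alternatives. A second probe of ATP5MC1 gave -1.75, against -0.41 for the brighter one that stands for the gene. Of the 22 members with several probes, 10 had probes of opposite sign in this comparison and 3 in the mean knockdown comparison.

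Over all 12 arrays the subunits had smaller ranges than genes in general, and they were also bright. The median intensity of their kept probes before normalization was 4101 to 8860 per array. Over all probes, detected or not, it was 150.2 to 196.8. COX7C and ATP5F1B reached 65374.6 and 64538.4. The part of brightness in the small ranges was not tested. The median range of a subunit was 0.73 on the log2 scale, against 1.15 for all genes, and 59 of 76 (77.6%) ranged over less than 1, against 37.2% of all genes. The mitochondrial ribosomal proteins had a like spread, with a median range of 0.77. The members with the widest ranges were ATP5MK (3.34), COX7A1 (2.32), NDUFC2 (1.82), NDUFS1 (1.52) and NDUFV3 (1.5). The median of the 76 subunits, each set against its own mean over the arrays, was 0.12 and 0.00 in H9 knockdown, -0.03 and 0.00 in H9 mismatch, and -0.12 and 0.03 in untreated H9. It was -0.04 and -0.02 in CT2 knockdown, 0.14 and -0.02 in CT2 mismatch, and -0.08 and -0.08 in untreated CT2. Replicates of 1 group differed by as much as groups did.

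**Figure D4:**
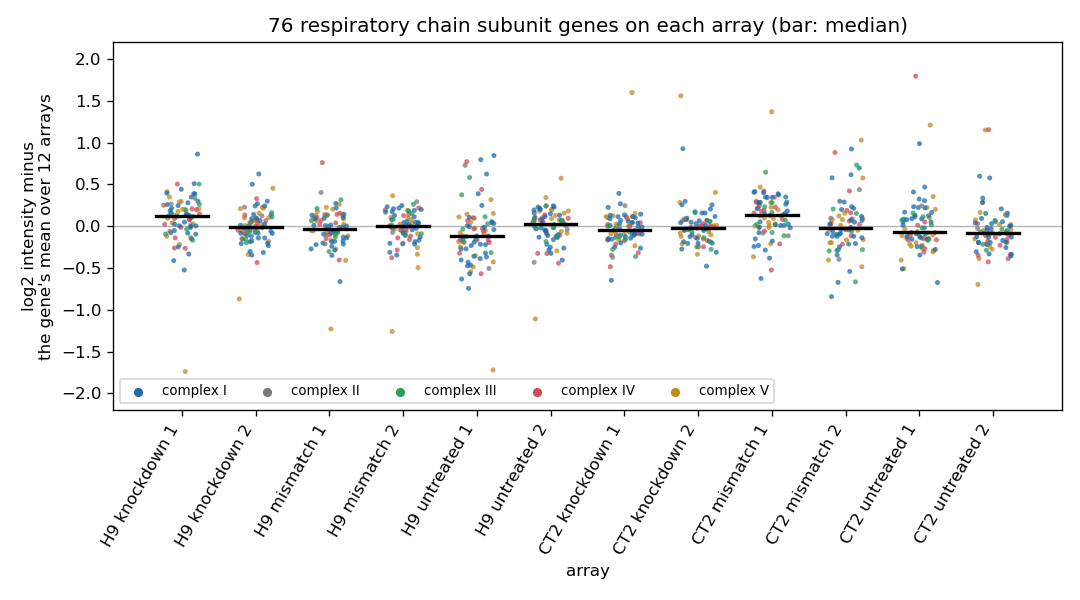
Log2 intensity of each of the 76 subunits on each array (x axis) minus that gene's mean over the 12 arrays (y axis), coloured by complex, with a bar at the median. The medians lie between -0.12 and 0.14, and the points spread most on H9 untreated 1 and CT2 mismatch 2; the lowest points on the H9 arrays are ATP5MK.

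On the 2 arrays that stood apart, most subunits were displaced from the partner array in a shared direction. H9 untreated replicate 1 minus replicate 2 was set against CT2 mismatch replicate 2 minus replicate 1. Across the 76 subunits Pearson r was 0.72, and 62 (81.6%) had the same sign. Across all genes r was 0.37, with 63.4% of the same sign. The order of subtraction was chosen so that the arrays that stood apart came first. Replicates of other groups shared deviations too. Over all genes, same-numbered deviations in CT2 mismatch had an r of -0.374 with untreated H9. It was 0.393 with H9 knockdown, -0.37 with H9 mismatch, -0.195 with CT2 knockdown and 0.071 with untreated CT2. NDUFS1, the largest core subunit of complex I, was displaced by 0.77 in H9 and 1.24 in CT2. NDUFC1 was displaced by 0.67 and 0.94, NDUFAB1, the mitochondrial acyl carrier protein, by 0.64 and 0.94, UQCRC2 by 0.71 and 0.71, COX7B by 1.1 and 0.69, and SDHD by 1.16 and 0.52, each with H9 first. On the low side were ATP5MC1 (-0.70 in H9 and -0.71 in CT2), UQCR10 (-0.56 and -0.59) and SDHC (-0.47 and -0.51). These arrays belong to different lines and different treatments, and they had the lowest median intensities before normalization. These were 150.2 for H9 untreated replicate 1 and 160.7 for CT2 mismatch replicate 2, against 162.6 to 196.8 on the other 10. The array at 162.6 was CT2 untreated replicate 1, whose group had the smallest SD between replicates, 0.213. The part of signal strength in this pattern was not tested.

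**Figure D5:**
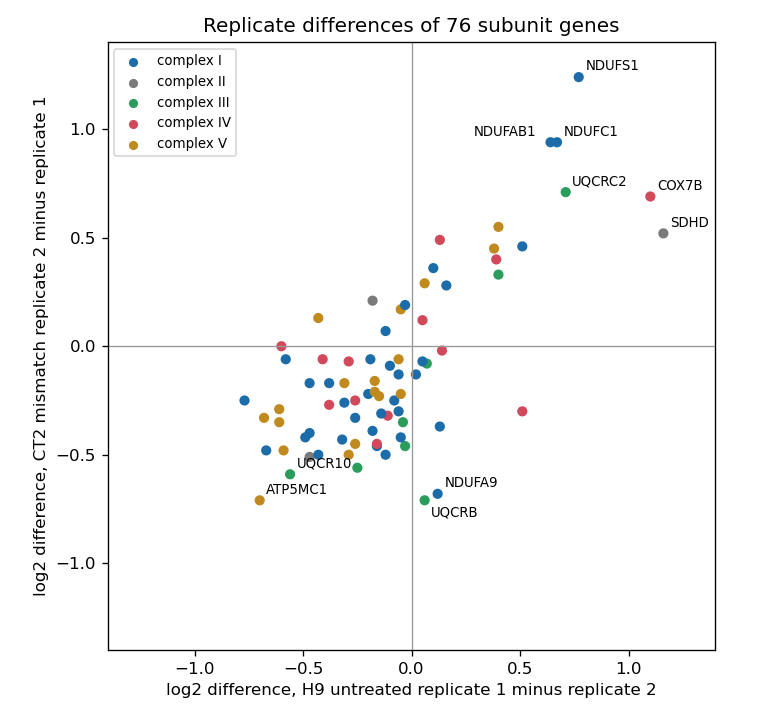
Replicate difference in untreated H9 (x axis, replicate 1 minus replicate 2) and in CT2 mismatch (y axis, replicate 2 minus replicate 1) for each of the 76 subunits, in log2 units and coloured by complex. NDUFS1, NDUFC1, NDUFAB1, UQCRC2, COX7B and SDHD lie above 0.5 on both axes, and r over the 76 points is 0.72.

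Other genes of mitochondrial respiration were counted in the mean knockdown comparison, where 3.18% of all genes were higher and 3.38% lower. Of 50 measured assembly factors 1 rose and 1 fell. FASTKD2, an RNA-binding protein of the mitochondrial matrix, was 10.10 and 10.44 in H9 knockdown, against 9.64 and 9.51 in H9 mismatch, and 10.08 and 10.19 in CT2 knockdown, against 9.41 and 9.61 in CT2 mismatch. It rose by 0.66 ± 0.16 over the mismatch shRNA (limma, adjusted p = 0.0171). Untreated arrays, at 10.19 and 10.21 in H9 and 9.89 and 10.17 in CT2, were also above the mismatch arrays. NDUFAF7, a methyltransferase that modifies a complex I core subunit, was 12.21 and 11.96 in H9 knockdown, against 12.90 and 12.76 in H9 mismatch, and 12 and 12.05 in CT2 knockdown, against 12.42 and 12.46 in CT2 mismatch. It fell by 0.58 ± 0.12 on the log2 scale (limma, adjusted p = 0.00967). Untreated arrays were at 12.76 and 12.49 in H9 and at 11.85 and 11.76 in CT2, so those of CT2 lay below the knockdown arrays. Set against untreated cells, the knockdown had 0 calls in limma among assembly factors (9 at an unadjusted p under 0.05), 0 among citric acid cycle genes (2) and 0 among mitochondrial ribosomal proteins (2).

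Of 12 measured citric acid cycle genes 1 rose, SUCLG1 of succinyl-CoA ligase, at 0.52 ± 0.14 (limma, adjusted p = 0.0316), and 0 fell. Of 79 mitochondrial ribosomal proteins MRPL17 rose by 0.49 ± 0.13 (limma, adjusted p = 0.0316) and 0 fell. Of 20 genes of mitochondrial transcription and biogenesis 0 rose and 0 fell in limma, and 2 had an unadjusted p under 0.05. CYCS, the cytochrome c gene, stood at 0.47 ± 0.17 (limma, adjusted p = 0.106), with 4 of 4 knockdown arrays above the mismatch arrays of their line. Against untreated cells CYCS stood at 0.03 ± 0.17 with the knockdown and -0.44 ± 0.17 with the mismatch shRNA (adjusted p = 0.954 and 0.199). CYC1, cytochrome c1 of complex III, was at 0.08 ± 0.14. The medians of these lists were 0.11 for assembly factors, 0.01 for citric acid cycle genes, 0.09 for ribosomal proteins and 0.07 for transcription and biogenesis, against 0.01 over all genes.

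Between the untreated lines, 1 of 50 assembly factors was higher in H9 and 7 were lower, against 5.99% and 8.76% of all genes. They include NUBPL, which brings iron-sulphur clusters to complex I (-1.1 ± 0.20, limma, adjusted p = 0.00257), COX19 (-1.31 ± 0.28), BCS1L, which inserts the iron-sulphur protein into complex III (-1.15 ± 0.29), and NDUFAF7 (0.82 ± 0.18). Of the 20 biogenesis genes 2 were higher, ESRRA, an orphan nuclear receptor (1.23 ± 0.28), and SSBP1 (0.75 ± 0.18), and 1 was lower, the polymerase subunit POLG2 (-1.04 ± 0.20). Of the 79 ribosomal proteins 4 were higher and 2 lower, and of the 12 citric acid cycle genes OGDH was higher by 1.41 ± 0.28 (limma, adjusted p = 0.00429).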

How the data were processed

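Total RNA of 2 human embryonic stem cell lines was hybridised to Illumina bead arrays, with 12 arrays in 6 groups of 2, and groups were taken from the labels. Per the file headers, the deposited table gives raw intensity and detection p-value per probe. The submitters' processing notes name GenomeStudio; its version was not given in the sources read here. The number of arrays limits the precision.

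Intensities were corrected with normexp (negative controls inferred from detection p-values, offset 16), quantile-normalized over 12 arrays and put on the log2 scale in limma 3.58.1 (R 4.3.3). The filter required detection (p under 0.05) on 2 or more arrays, and the brightest probe stood for a gene. Of 82 member genes on the array, 6 were not kept: COX4I2, COX6A2, COX7B2, COX8C and NDUFS6 were detected on 0 arrays, and NDUFA5 on 1, with a highest intensity of 221.1. Just inside that limit lay COX7A1, detected on 2 arrays with a highest intensity of 253.6, and COX6B2, detected on 3.

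All 12 arrays entered one fit with a mean for each group (eBayes with trend and robust settings). Tests were two-sided, with Benjamini-Hochberg adjustment over 13951 genes at 0.05 and no minimum fold. The members and lists were chosen with earlier results of these data known. Named were every member past the threshold, the smallest p-values otherwise, paralogous isoforms, the SDH genes and ATP5IF1. NDUFC2, NDUFV3 and the core subunits of complex I outside that rule, and the other subunits listed by range, replicate difference or interval, were named after their values were seen. The authors' deposited value table (intensity, normalized within each line) was used as an alternative. Scripts were tested on simulated data. Replicate numbers did not pair the samples: correlations of same-numbered deviations ran from -0.374 to 0.393. Promoters came from RefSeq.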

Additional observations from a re-analysis of the deposited data

How the results depend on the processing

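Over 22 alternatives, 57 gene results gave 1247 values, of which 1166 kept the side of the threshold. These include values that changed sign where neither fit called the gene. COX5A, for example, ran from -0.13 to 0.16 in the mean knockdown comparison with 1 array left out. Another 73 kept direction and lost the call, and 8 kept direction and gained one. With a call in either fit, 0 reversed. For H9 over CT2, calls were 3 higher and 2 lower with median scaling (median of members 0.16, of all genes 0.16), 6 and 2 in the authors' table (median 0.17), 1 and 2 without trend or robust settings, and 2 lower with all kept probes. Over all genes these were 1266 higher and 653 lower with median scaling and 1689 and 786 in the authors' table, against 835 and 1222. The NDUFA8 call, 1 in the mean knockdown comparison, became 0 with no detection filter (adjusted p = 0.051), all kept probes (0.0548) and no trend or robust settings (0.105). Knockdown over untreated lost its 1 lower call (0) when detection on all 12 arrays was required, which leaves COX7A1 untested, and with all kept probes. Mismatch over untreated gained 1 lower call without the filter. With both arrays that stood apart left out, H9 over CT2 had a median of 0.13, against -0.017 over all genes. Median scaling gave medians of 0.14 for the knockdown in H9, -0.05 for knockdown over untreated and -0.08 for mismatch over untreated, against 0.096, 0.009 and -0.076 over all genes in the same setting. The cause of these changes was not tested.

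With the replicate block, the mean knockdown comparison had 0 calls (NDUFA8 adjusted p = 0.0627), knockdown over untreated 0 and H9 over CT2 2 lower, while no other count changed by over 1.5 times. The numbers do not pair the samples, so a call lost under the block is not a weaker effect.

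Leaving out 1 array at a time gave, for H9 over CT2, 0 to 6 higher and 1 to 4 lower with medians from -0.07 to 0.13. For the knockdown in CT2 it gave 0 to 1 higher, 0 to 6 lower and medians from -0.15 to 0.01. For the mean knockdown, knockdown over untreated and mismatch over untreated it gave 0 to 1 in each direction. The difference of responses had 0 to 1 higher and medians from 0.07 to 0.22. The lone array then left in a group was assumed to vary like the others. For H9 over CT2 the number of all genes called higher moved too. It fell without either untreated CT2 array and rose without either CT2 mismatch array, as did the subunit count. A change in the subunit count is thus not particular to the subunits. The subunit median was -0.07 without H9 untreated replicate 2 and 0.13 without replicate 1. The medians of all genes were -0.019 and -0.017 there.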
